A study of Mus musculus with 16 samples.

Results

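The 10 genes described here are listed as markers of the endothelium that lines the sinusoids of the liver, not all particular to it. They were chosen by symbol (Stab1, Stab2, Lyve1, Clec4g, Fcgr2b, Pecam1, Kdr, Gpr182, Oit3 and Vwf) among the 55291 genes of the counts table, and all 10 passed the filter on low counts. Polyadenylated RNA came from mouse livers and liver tumours, as 16 libraries in 8 groups of 2. Livers labelled WT, Arid1a KO and Arid1a/b DKO were taken 9 days after tamoxifen, and livers labelled WT and Arid1a KO also after 30 days, all with DMSO as the vehicle. A pair of groups, WT and Arid1a KO, received what the labels call an NR1L3 agonist. The WT ones carry 9 days in the title and 30 days in other labels, and both agonist groups are treated as 30-day livers. Tumours carry the label Arid1a KO/BcatEXON, with no time point and no treatment. The labels name no promoter that drives the deletion, no animal age and no strain. Descriptions of the WT samples begin with ALB, with no meaning stated, so the cells that lost Arid1a or Arid1b are not given. The cell type label is hepatocytes, while the series describes whole tissue. The summed level of the 10 members ran from 152 to 828 CPM (counts relative to library size, scaled by TMM) over the 16 libraries and that of 6 hepatocyte genes from 10142 to 36063 CPM, so that endothelial RNA was present in each. All 10 genes had at least 23 counts in every library.

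Sinusoidal endothelial cells form a perforated lining without a continuous basement membrane between the blood and the hepatocytes. They are known as scavenger cells that clear waste molecules and immune complexes through receptors such as the stabilins and the inhibitory Fc receptor. In liver cancer and fibrosis they are known to take on features of continuous capillaries, a process called capillarization. In whole tissue, fewer cells of a type and less RNA per cell cannot be told apart.

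Total counts were 7.57 to 32.0 M in the first replicates and 19.999 to 47.8 M in the second, lowest in tumours and highest in livers labelled Arid1a/b DKO. Arid1a ranged from 68.6 to 105 CPM over the 14 livers and was not called lower in any liver group labelled as lacking it. In tumours Arid1a was at 55.6 and 63.7 CPM, lower than in 30-day WT livers (log2 -0.67, SE 0.19, edgeR adjusted p = 0.0197). Against 30-day livers labelled Arid1a KO the tumours did not pass (log2 -0.52, edgeR adjusted p = 0.0649). A count over the whole gene includes exons outside any deleted part, so it checks no label. Arid1b had 38.0 and 52.8 CPM in 9-day WT livers and 24.5 and 25.7 CPM in livers labelled Arid1a/b DKO (log2 fold change -0.85, SE 0.28, edgeR adjusted p = 0.0439). Against 9-day livers labelled Arid1a KO its difference did not pass (log2 -0.75, SE 0.28, edgeR adjusted p = 0.0774).

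Upstream sequences of 5 of the 10 genes were found in the RefSeq table (GRCm38.p6). They are shown for 2 scavenger receptor genes that differed in tumours, Clec4g being called lower there than in WT livers and Stab1 not, and whose windows end where the annotated gene begins. The 250 bases before the start of Clec4g lie at chr8:3720652-3720901 and those of Stab1 at chr14:31168642-31168891, both on the minus strand and written 5′ to 3′. Capitals mark AGGAAG, the core of motifs bound by ETS factors, on either strand (CTTCCT on the other).
Clec4g: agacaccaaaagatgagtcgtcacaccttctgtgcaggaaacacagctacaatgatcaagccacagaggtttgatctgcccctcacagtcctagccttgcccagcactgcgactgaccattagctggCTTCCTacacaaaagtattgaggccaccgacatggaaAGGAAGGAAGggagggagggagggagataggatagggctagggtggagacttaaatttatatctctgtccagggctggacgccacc
Stab1: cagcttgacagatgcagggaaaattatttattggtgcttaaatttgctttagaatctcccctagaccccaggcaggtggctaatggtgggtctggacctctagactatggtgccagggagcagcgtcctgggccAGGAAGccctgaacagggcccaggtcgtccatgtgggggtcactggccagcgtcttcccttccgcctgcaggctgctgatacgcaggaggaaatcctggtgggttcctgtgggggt
Clec4g held 3 matches, at 123, 86 and 82 bases before the start, of which the last pair overlap, and Stab1 held 1 at 116 bases. The motif was in 3 of the 5 member windows and in 29.5% of 32851 windows of the same length. The motif AGATAA, bound by GATA factors and searched on both strands, was in 0 of the 5 and in 9.99% of all windows. These matches are descriptions of the letters only.

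The 8 groups were ordered by their mean level (± SD, n = 2). For the receptors of the scavenging machinery, livers labelled Arid1a/b DKO came first and tumours last. Stab2 went from 113 ± 11.3 CPM in DKO through 92.6 ± 12.8 in WT at 30 days, 87.8 ± 29.9 in WT at 9 days, 79.9 ± 7.34 in agonist-treated WT, 60.4 ± 25.7 in Arid1a KO at 30 days, 51.5 ± 34.2 in agonist-treated Arid1a KO and 47.8 ± 2.59 in Arid1a KO at 9 days to 16.2 ± 0.808 in tumours. The libraries of DKO and of tumours were apart from those of their neighbours in this order, and all other neighbours overlapped. DKO (105 and 121 CPM) did overlap WT at 9 days (66.6 and 109 CPM), which is not its neighbour. Clec4g had the same ends, 86.4 ± 9.11 CPM in DKO and 11.03 ± 4.81 in tumours, with means of 58.3 to 65.8 in the 3 WT groups and 42.5 to 45.1 in the 3 Arid1a KO groups. Fcgr2b stood at 102 ± 15.2 CPM in DKO, 72.8 to 73.6 in the WT groups, 42.0 to 49.5 in the Arid1a KO groups and 16.5 ± 1.28 in tumours. In both genes neighbours among the WT and Arid1a KO groups overlapped. Stab1 ran from 162 ± 42.3 CPM in DKO to 50.3 ± 2.89 in tumours, with the 6 other groups at 77.96 to 93.5, and here tumours overlapped agonist-treated Arid1a KO livers.

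Kdr, Gpr182 and Oit3 followed this order at its ends, with 84.2 ± 18.7, 55.8 ± 1.30 and 39.8 ± 1.88 CPM in DKO and 16.2 ± 5.66, 12.4 ± 0.469 and 6.82 ± 2.00 in tumours, apart from the next group at both ends. Lyve1 was highest in DKO (69.2 ± 7.50 CPM), then in tumours (25.1 ± 15.7) and agonist-treated Arid1a KO livers (13.2 ± 11.004), and lay between 3.85 and 7.54 in the other groups. Its DKO libraries were apart from tumours, and all lower neighbours overlapped. Pecam1 was at 52.5 ± 0.452 CPM in DKO and between 15.1 and 20.035 in the 7 other groups, which overlapped. Vwf ran from 12.7 ± 6.45 CPM in tumours and 12.1 ± 6.62 in DKO to 6.08 ± 4.30 in agonist-treated Arid1a KO livers, and its neighbours overlapped except WT and Arid1a KO at 9 days. The plot of member levels shows all 16 libraries.

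In tumours most of the scavenger and sinusoidal genes were lower than in 30-day WT livers, while Lyve1 was higher and Stab1, Pecam1 and Vwf did not pass the test. Against the 30-day WT livers 6 members fell and 1 rose, at an adjusted p under 0.05. Over all 18193 genes tested 30.2% were called, 13.8% as lower and 16.3% as higher. The members' median log2 fold change was -1.61, against 0.05 over all genes. Against the 30-day livers labelled Arid1a KO, 4 members fell, with 25.1% of all genes called, 12.2% lower and 12.9% higher, and the median was -0.97. Both comparisons share the tumour libraries, and the plot of fold changes shows them side by side.

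Stab2, on the minus strand of chromosome 10 (86841198 to 87008025, GRCm38), encodes stabilin-2, the main hyaluronan clearance receptor of the sinusoid. It stood at 102 and 83.5 CPM in 30-day WT livers, at 78.6 and 42.2 CPM in 30-day livers labelled Arid1a KO, and at 16.8 and 15.7 CPM in tumours. The tumours lay below every liver library, the lowest of which had 27.3 CPM. The log2 fold change was -2.51 against WT (SE 0.43, edgeR adjusted p = 0.00155) and -1.89 against Arid1a KO (SE 0.43, edgeR adjusted p = 0.00801). Stab1 (chromosome 14, 31139013 to 31168641) encodes stabilin-1, a receptor that macrophages also carry. It stood at 86.8 and 77.0 CPM in 30-day WT livers, 84.3 and 86.4 CPM in 30-day livers labelled Arid1a KO and 52.3 and 48.2 CPM in tumours. The tumours lay below all 4 of these livers, but the difference did not pass the test against WT (log2 -0.70, SE 0.32, edgeR adjusted p = 0.117) or against Arid1a KO (log2 -0.76, SE 0.32, edgeR adjusted p = 0.102).

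Clec4g (chromosome 8, 3707064 to 3720651) encodes LSECtin, a C-type lectin of sinusoidal cells. It stood at 69.0 and 59.0 CPM in 30-day WT livers, at 57.8 and 32.3 CPM in those labelled Arid1a KO and at 14.4 and 7.62 CPM in tumours. Tumours were below every liver, with a log2 of -2.55 against WT (SE 0.46, edgeR adjusted p = 0.00193) and -2.04 against Arid1a KO (SE 0.45, edgeR adjusted p = 0.00749). Fcgr2b (chromosome 1, 170958617 to 170976547) encodes the inhibitory Fc gamma receptor, which clears immune complexes in the sinusoid and is also carried by B cells and macrophages. It stood at 76.1 and 69.4 CPM in 30-day WT livers, 48.8 and 35.2 CPM in those labelled Arid1a KO and 17.4 and 15.6 CPM in tumours. Tumours were again below every liver (log2 -2.14, SE 0.36, edgeR adjusted p = 0.00139 against WT and log2 -1.35, SE 0.36, edgeR adjusted p = 0.0179 against Arid1a KO). The calls of Stab2, Clec4g and Fcgr2b against WT held in all 11 alternatives run. Against Arid1a KO all 3 were lost without Arid1a KO replicate 1, those of Clec4g and Fcgr2b also with only the compared libraries in the fit, and that of Fcgr2b also without either tumour.

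Lyve1 (chromosome 7, 110850607 to 110863239), a hyaluronan receptor of lymphatic and sinusoidal endothelium and of some macrophages, went the other way. It was at 5.75 and 1.95 CPM in 30-day WT livers, 3.88 and 8.35 CPM in those labelled Arid1a KO and 36.2 and 13.99 CPM in tumours. Both tumours were above both WT livers (log2 2.75, SE 0.82, edgeR adjusted p = 0.0243). Compared with Arid1a KO it did not pass (log2 1.99, SE 0.78, edgeR adjusted p = 0.0802). The replicates of each of these groups differed by more than 2-fold, and the call against WT was lost without tumour replicate 1 (log2 1.92), without WT replicate 1 (log2 3.63) and without WT replicate 2 (log2 2.15).

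**Figure D1:**
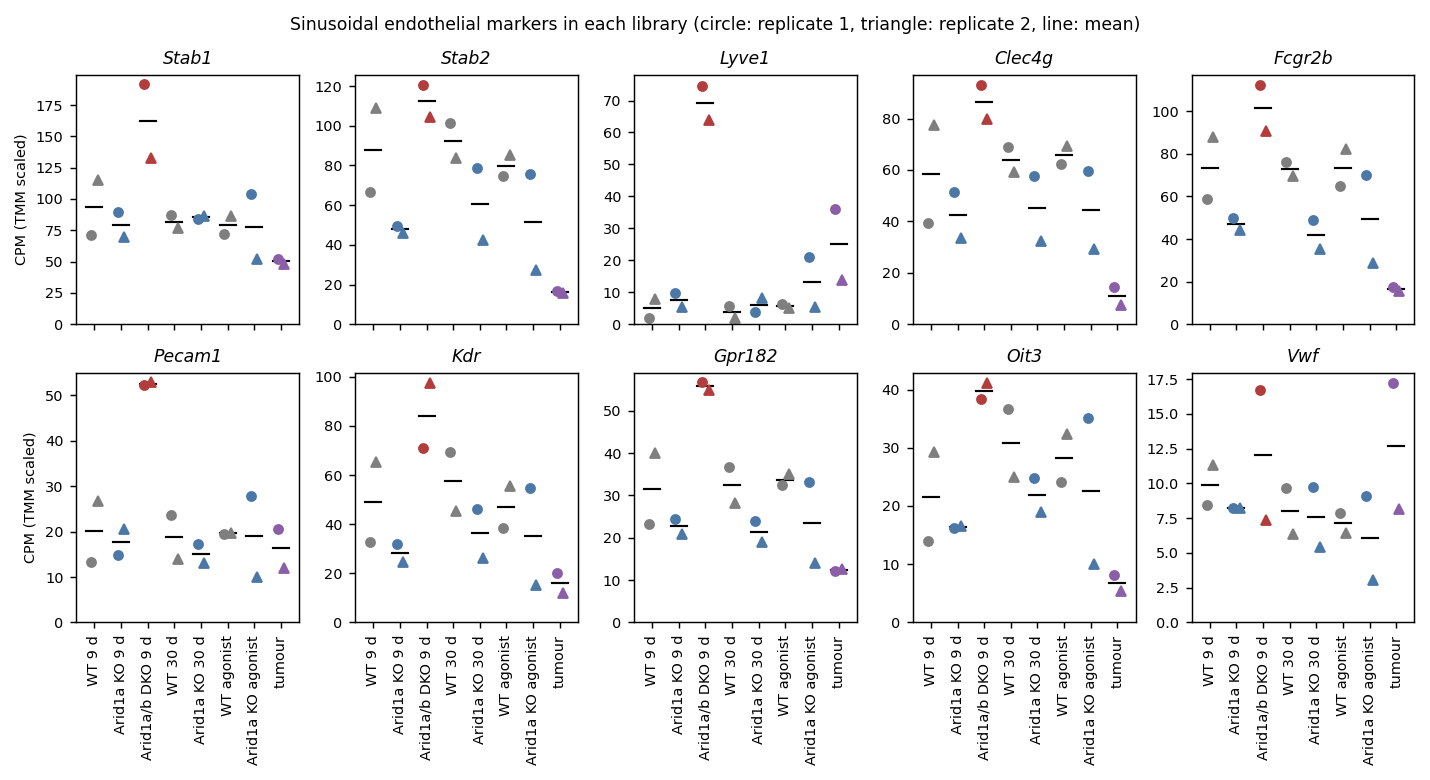
Level of each member in each library, in CPM on a linear axis that starts at 0; the 8 groups are on the horizontal axis, a circle is replicate 1, a triangle replicate 2 and the line their mean. Stab2 stands at 16.8 and 15.7 CPM in tumours, below all 14 livers, and Lyve1 at 74.5 and 63.9 CPM in livers labelled Arid1a/b DKO, above all other libraries.

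Kdr (chromosome 5, 75932827 to 75978458) encodes the main signalling receptor for VEGF. It stood at 69.5 and 45.3 CPM in 30-day WT livers, 46.1 and 26.4 CPM in those labelled Arid1a KO and 20.2 and 12.2 CPM in tumours. It was lower in tumours than in WT (log2 -1.83, SE 0.55, edgeR adjusted p = 0.0266), a call lost without either WT library (log2 -1.54 without replicate 1 and -2.07 without replicate 2) and without tumour replicate 2 (log2 -1.55). Against Arid1a KO it did not pass (log2 -1.16, SE 0.55, edgeR adjusted p = 0.140). One liver, the second agonist-treated liver labelled Arid1a KO, had 15.2 CPM, inside the tumour range.

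Gpr182 (chromosome 10, 127747276 to 127751732) encodes an atypical chemokine receptor of sinusoidal cells. It stood at 36.7 and 28.2 CPM in 30-day WT livers and at 12.1 and 12.7 CPM in tumours (log2 -1.38, SE 0.36, edgeR adjusted p = 0.0129), and the call was lost without WT replicate 1 (log2 -1.22) and without tumour replicate 1 (log2 -1.34). Oit3 (chromosome 10, 59422958 to 59441778), a secreted zona pellucida domain protein, had 36.7 and 25.1 CPM in WT livers against 8.23 and 5.40 CPM in tumours (log2 -2.19, SE 0.52, edgeR adjusted p = 0.00819), a call lost without WT replicate 1 (log2 -1.93). Against Arid1a KO, Oit3 also fell (log2 -1.69, SE 0.51, edgeR adjusted p = 0.0319), a call lost without any 1 of the 4 compared libraries and with only these in the fit, while Gpr182 had a log2 of -0.78 (edgeR adjusted p = 0.130). The tumours lay below all 14 livers for both genes.

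Pecam1 and Vwf are not particular to the sinusoids. Pecam1 (chromosome 11, 106654217 to 106750628), an adhesion molecule of endothelial junctions, platelets and leukocytes, had 23.8 and 13.9 CPM in 30-day WT livers and 20.6 and 12.1 CPM in tumours, ranges that overlapped. Its log2 was -0.20 with a 95% confidence interval from -1.23 to 0.82 (edgeR adjusted p = 0.772). Vwf (plus strand of chromosome 6, 125546774 to 125686679), the adhesive glycoprotein that large vessels and megakaryocytes store, had 9.68 and 6.35 CPM in WT livers but 17.2 and 8.13 CPM in tumours. The ranges overlapped here too, with a log2 of 0.66 and an interval from -0.54 to 1.87 (edgeR adjusted p = 0.387).

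The count of 7 members called against WT was 3 without WT replicate 1. The count of 4 against Arid1a KO was 0 without Arid1a KO replicate 1, 2 without tumour replicate 1 and 1 with only the compared libraries in the fit.

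**Figure D2:**
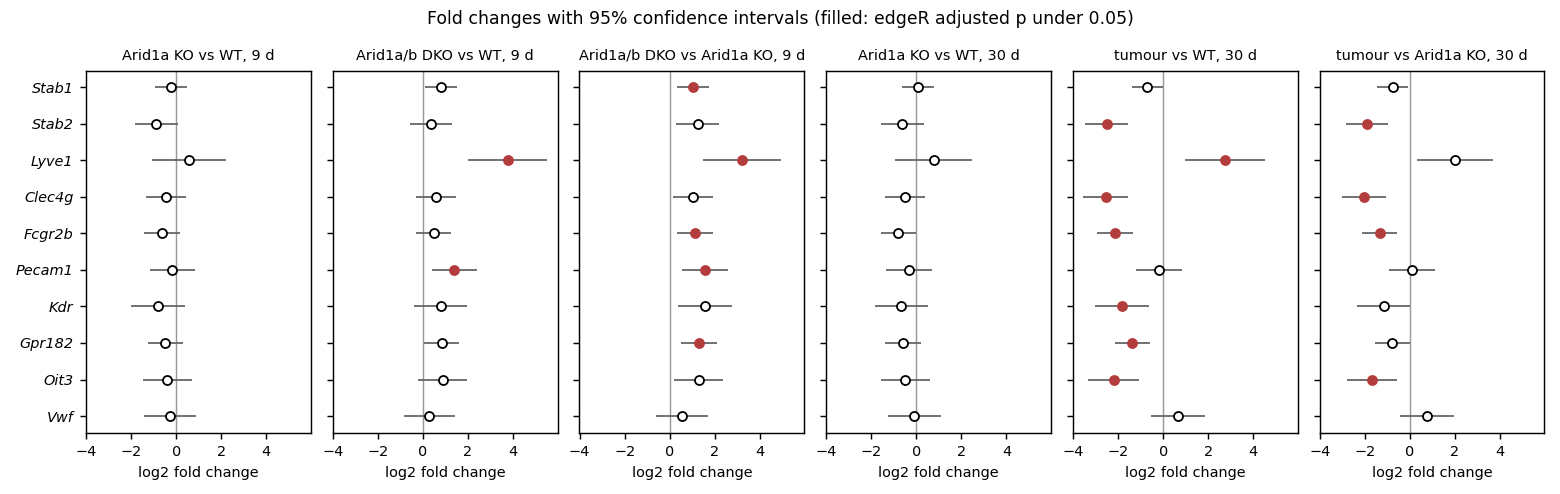
Log2 fold change of each member (point) with its 95% confidence interval (line) in 6 comparisons, on 1 shared linear axis; filled points have an adjusted p under 0.05. The tumour panel against WT has 6 filled points on the left and Lyve1 on the right at 2.75, and both panels of Arid1a KO against WT have none filled.

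Other endothelial genes were read from lists of known markers. Over all genes 30.2% were called in tumours against WT and 25.1% against Arid1a KO. Of 20 pan-endothelial genes, 7 were lower and 2 higher in tumours than in 30-day WT livers, and the median log2 was -0.84. Eng, or endoglin, a co-receptor for BMP ligands, fell from 92.2 and 93.0 CPM to 37.4 and 20.4 CPM (log2 -1.68, SE 0.33, edgeR adjusted p = 0.00287). Esam, an adhesion molecule of endothelial junctions, rose from 16.7 and 15.1 CPM to 67.1 and 161 CPM (log2 2.85, SE 0.43, edgeR adjusted p = 0.000709), and Ecscr, an endothelial surface receptor, rose by 2.18 on the log2 scale (edgeR adjusted p = 0.0107). Pan-endothelial genes therefore moved in both directions, and their summed level was 298 and 321 CPM in tumours against 484 and 404 CPM in WT.

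Of 12 other sinusoidal genes, 7 were lower and 1, Aqp1, was higher, and the median log2 was -1.46. Dnase1l3, a secreted nuclease of sinusoidal cells and macrophages, fell from 59.3 and 46.7 CPM to 2.48 and 3.18 CPM (log2 -4.20, SE 0.48, edgeR adjusted p = 0.000166). Ehd3, a membrane-trafficking protein, had a log2 of -2.90 and Cd209b, a C-type lectin, a log2 of -3.46. Against livers labelled Arid1a KO, 3 of the 12 fell, Dnase1l3 and Ehd3 among them, and Aqp1, a water channel, rose (log2 1.54, SE 0.36, edgeR adjusted p = 0.00946). Of the 20 pan-endothelial genes 5 fell and 2 rose in that comparison.

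Of 6 central vein endothelial genes, 2 fell in tumours against WT, Rspo3, a Wnt signal enhancer (log2 -3.21, SE 0.53, edgeR adjusted p = 0.00125) and the receptor kinase gene Kit (log2 -1.46). Against Arid1a KO, Rspo3 (log2 -2.74) and Wnt9b (log2 -2.08) fell. Over all genes 30.2% were called against WT, close to 2 of 6, and 25.1% against Arid1a KO. The 12 genes of vessels and capillary basement membrane moved both ways, with 2 higher and 3 lower against WT. Esm1, a proteoglycan of sprouting tip cells, had 1.15 and 0.545 CPM in WT livers against 36.1 and 16.9 CPM in tumours (log2 5.03, SE 0.96, edgeR adjusted p = 0.00262). Ltbp4 (log2 -1.52) and Plvap (log2 -1.43) fell.

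Among 9 ligand genes of these pathways 3 rose in tumours against WT. Angpt2, the Tie2 ligand of remodelling vessels, had 2.11 and 0.772 CPM in WT livers against 14.7 and 6.87 CPM in tumours (log2 2.95, SE 0.66, edgeR adjusted p = 0.00615). Apln, the apelin precursor, had 0 counts in both WT livers, was at 3.16 and 0.454 CPM in tumours and so was at least 19.5-fold higher than the floor of 3 counts over the WT group. Without tumour replicate 1 this bound was 4.92-fold. Pgf rose to 1.01 and 0.404 CPM, from 0 and 0.0908 CPM in WT (edgeR adjusted p = 0.0451). Of 8 receptor genes tested 3 fell, namely Nrp1 (log2 -1.78), Tie1 (log2 -1.09) and Nrp2 (log2 -1.93). Against Arid1a KO, Apln was the 1 ligand called higher and Tie1 the 1 receptor called lower. The ligand and receptor counts against WT are close to the 30.2% of all genes called. Those against Arid1a KO are below the 25.1% called there.

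**Figure D3:**
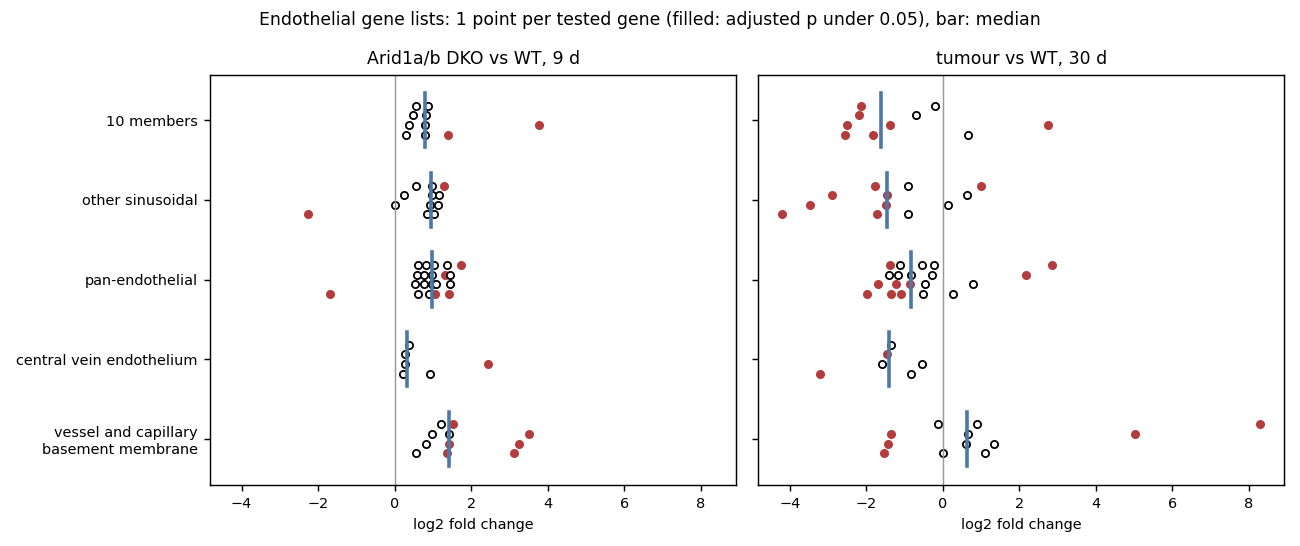
Log2 fold changes of the genes of 5 endothelial lists, 1 point per tested gene, filled where the adjusted p is under 0.05, with a bar at each list's median, for livers labelled Arid1a/b DKO against WT (left) and tumours against WT (right). The members' median lies at 0.79 on the left and -1.61 on the right; the point beyond 8 is Apln, whose WT livers had 0 counts, so that its fitted value is no measure of size.

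Some genes of other cells also differed between tumours and WT livers, where 30.2% of all genes were called. The platelet, hepatocyte, cholangiocyte and lymphatic counts below do not exceed that share. Of 15 Kupffer and macrophage genes 3 rose and 4 fell. Cd68, a lysosomal macrophage protein, rose from 8.72 and 3.27 CPM to 210.4 and 131 CPM, and Clec4f, a lectin that marks Kupffer cells, fell from 160.0 and 54.9 CPM to 17.9 and 20.4 CPM. Gpnmb, a glycoprotein of lipid-laden macrophages, was at 29.6 and 29.8 CPM in tumours and at most 0.0958 CPM in WT. The summed level of the 15 genes was 577 and 453 CPM in tumours and 715 and 236 CPM in WT, and Timd4 had 0 counts in the first tumour, where up to 0.338 CPM is allowed.

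Of 6 B cell genes 2 fell, and the summed level was 5.07 and 0.404 CPM in tumours against 10.1 and 7.03 CPM in WT, with 1 and 3 of the 6 genes at 0 counts in the tumours. Among them Cd79b, a chain of the B cell receptor, had a log2 of -2.23. Of 4 platelet genes tested Pf4 rose, and the summed level of all 6 was 16.1 and 9.90 CPM in tumours and 7.67 and 9.71 CPM in WT. Of 9 stellate cell genes 3 fell, Dcn, Colec11 and Ngfr having the smallest p, and 1 rose. Of 6 hepatocyte genes Fabp1 fell (log2 -1.33), of 5 cholangiocyte genes Epcam rose (log2 1.56), and of 4 lymphatic genes Prox1, which hepatocytes also express, fell (log2 -1.31). Fcgr2b and Stab1 are shared with B cells or macrophages and Vwf and Pecam1 with platelets, and the part of those cells in the members' values was not tested.

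Set against the mean log2 level of the 20 pan-endothelial genes in the same library, the members separated into groups. Stab2, Clec4g, Fcgr2b, Oit3 and Kdr were lower in tumours than in 30-day WT livers also on this scale, by differences of -1.94, -2.01, -1.58, -1.57 and -1.27 in log2, with no overlap. Gpr182 differed by -0.81, also with no overlap. Stab1 differed by -0.16 with overlapping libraries. Pecam1 was 0.33, Vwf 1.10 and Lyve1 3.09 above WT, with no overlap. The fitted fold changes of the pan-endothelial genes had a median log2 of -0.84 in tumours against WT. This median is not the shift of the mean level used as the reference here. Pecam1 without the reference had -0.20. Without the reference 62.4% of all genes did not overlap between these groups, and the share on this scale was not computed. Tumours thus differed from WT livers by unlike amounts over the 10 genes.

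**Figure D4:**
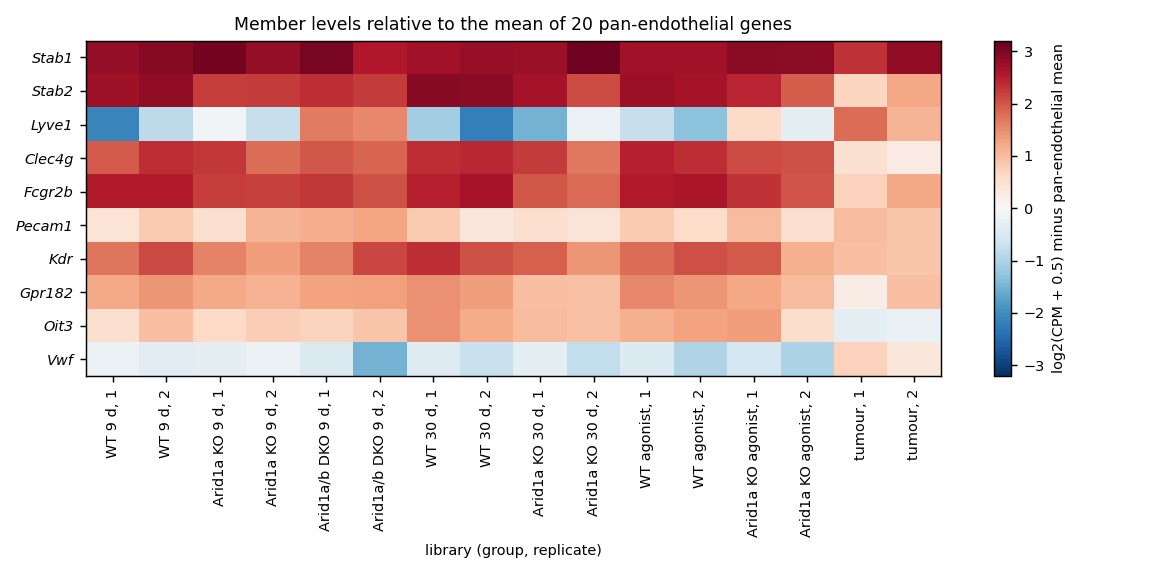
Log2 level of each member (rows) minus the mean log2 level of 20 pan-endothelial genes in the same library (columns, group and replicate), red above and blue below that mean; values are not per length, so they are read along a row. In the tumour columns Stab2, Clec4g and Fcgr2b are paler than in the livers, Oit3 turns from red to blue, and Vwf turns from blue to red.

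Per kilobase of exon, the order of the members differed between 30-day WT livers and tumours. In 30-day WT livers the level was highest for Clec4g (26.0 CPM per kb), followed by Fcgr2b (12.6), Oit3 (11.1) and Stab2 (10.6), and lowest for Lyve1 (1.32) and Vwf (0.499). In tumours the order began with Lyve1 (8.59 CPM per kb), Stab1 (4.89) and Clec4g (4.48), and ended with Vwf (0.790). The tumour replicates were 12.4 and 4.79 CPM per kb for Lyve1, 5.08 and 4.69 for Stab1 and 5.86 and 3.10 for Clec4g. These ranges overlapped, so that the order of the 3 did not exceed their spread. High ranks of Lyve1 and Stab1 were also seen in livers. Lyve1 was at rank 2 in those labelled Arid1a/b DKO (23.7 CPM per kb). Stab1 was at rank 2 in 30-day livers labelled Arid1a KO (8.30 CPM per kb).

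Livers labelled Arid1a/b DKO had the highest mean of the 8 groups for 9 of the 10 members, all but Vwf. Lyve1 and Pecam1 were called higher than in WT livers at 9 days. Of all 17831 genes tested 26.4% were called in this comparison, 12.6% as higher, so that 2 of 10 members is close to that share. All 10 log2 fold changes were positive with a median of 0.79, against 0.01 over all genes, and 8 of 10 members did not overlap, as did 66.4% of all genes.

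Lyve1 stood at 1.85 and 8.02 CPM in WT livers, 9.62 and 5.45 CPM in those labelled Arid1a KO and 74.5 and 63.9 CPM in those labelled Arid1a/b DKO. Both DKO livers were above every other library (log2 3.76, SE 0.80, edgeR adjusted p = 0.00717 against WT). Pecam1 stood at 13.3 and 26.7 CPM in WT livers and 52.2 and 52.9 CPM in those labelled Arid1a/b DKO (log2 1.39, SE 0.46, edgeR adjusted p = 0.0458). The scavenger receptor genes Stab2 (67 and 109 CPM in WT, 121 and 105 CPM in DKO, log2 0.36, edgeR adjusted p = 0.558), Clec4g (log2 0.57) and Fcgr2b (log2 0.47) did not pass. Neither did Stab1 (log2 0.80, SE 0.33, edgeR adjusted p = 0.0945), Gpr182 (log2 0.82), Oit3 (log2 0.87), Kdr (log2 0.78) or Vwf (log2 0.29).

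WT replicate 1 at 9 days was below replicate 2 for all 10 members. Without it 0 members were called against WT by edgeR, and Lyve1 had a log2 of 3.10 and Pecam1 of 0.97. The Pecam1 call was also lost without either DKO library (log2 1.40 without replicate 1 and 1.34 without replicate 2) and with all 16 libraries in the fit (log2 1.38), so that 1 member was then called.

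Against the 9-day livers labelled Arid1a KO 5 members rose, with 22% of all genes called and 9.92% called higher. These were Lyve1 (log2 3.21, SE 0.78, edgeR adjusted p = 0.0152), Gpr182 (log2 1.31, SE 0.36, edgeR adjusted p = 0.0265), Pecam1 (log2 1.57, SE 0.46, edgeR adjusted p = 0.0330), Stab1 (log2 1.04, SE 0.33, edgeR adjusted p = 0.0450) and Fcgr2b (log2 1.12, SE 0.36, edgeR adjusted p = 0.0470). Gpr182 stood at 24.5 and 20.8 CPM in Arid1a KO and at 56.7 and 54.9 CPM in DKO, and Fcgr2b at 49.7 and 44.5 CPM and 112 and 91.0 CPM. The remaining members were also above 0, with adjusted p-values of 0.0599 for Kdr, 0.0602 for Stab2, 0.0870 for Oit3, 0.0923 for Clec4g and 0.474 for Vwf in edgeR. The members' median was 1.26, against 0.02 over all genes, and 9 of 10 did not overlap, as did 65.8% of all genes. The count of 5 was 0 without DKO replicate 1 and without either Arid1a KO library, and 1 without DKO replicate 2. It was 8 in DESeq2, 9 with only the compared libraries in the fit, and 8 without the second agonist-treated liver labelled Arid1a KO, an alternative chosen after seeing the data. The comparisons with WT and with Arid1a KO share the DKO libraries.

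Of the 20 pan-endothelial genes 4 rose and 1 fell in livers labelled Arid1a/b DKO against WT, with a median log2 of 0.97. Against Arid1a KO 10 rose and 1 fell. Over all genes 26.4% were called against WT and 22% against Arid1a KO. The pan-endothelial and other sinusoidal counts against WT do not exceed 26.4%. Ecscr (log2 1.73 against WT) and Tie1, a receptor kinase of endothelium (log2 1.31), rose, while S1pr1, a sphingolipid receptor, fell from 93.6 and 61.4 CPM in WT to 18.4 and 29.0 CPM (log2 -1.70, SE 0.40, edgeR adjusted p = 0.0116). Of the 12 other sinusoidal genes Aqp1 rose (log2 1.28) and Cd209b fell (log2 -2.26) against WT, and 4 rose against Arid1a KO. Relative to the pan-endothelial mean, Lyve1 was 3.08 and Pecam1 0.57 above WT on the log2 scale, while Stab2 (-0.48), Fcgr2b (-0.39) and Vwf (-0.70) were below it, all without overlap. Stab1, Clec4g, Kdr, Gpr182 and Oit3 overlapped on that scale. Against 9-day livers labelled Arid1a KO, Lyve1 (2.01), Pecam1 (0.41), Kdr (0.41), Gpr182 (0.14) and Stab2 (0.08) were higher and Vwf (-0.73) lower without overlap, and Stab1, Clec4g, Fcgr2b and Oit3 overlapped. For Stab2 the relative levels were 2.360 and 2.235 in DKO and 2.217 and 2.227 in Arid1a KO. The gap between these groups was thus smaller than that between the DKO replicates. Without the reference, 66.4% of all genes did not overlap against WT and 65.8% against Arid1a KO. Differences on this scale were not tested.

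Genes of vessels and capillary basement membrane rose in 6 of 11 tested against WT and 9 of 11 against Arid1a KO. The smallest p-values were those of the basement membrane collagens, Col4a1 with 25.9 and 51.1 CPM in WT livers against 469 and 269 CPM in DKO (log2 3.26, SE 0.51, edgeR adjusted p = 0.00133) and Col4a2 with a log2 of 3.51. Plvap, a protein of endothelial fenestrae and caveolae, rose as well (log2 1.38). Thbd, the thrombin receptor thrombomodulin, was the 1 of 6 central vein genes called (log2 2.44). Among 7 ligand genes tested Vegfc (log2 1.36) and Dll4 (log2 1.46) were higher and Vegfa lower (log2 -0.79), with 3 called higher and 1 lower in all. Of 8 receptors tested 2 rose against WT, Tie1 and Notch4 (log2 1.24), and 5 against Arid1a KO. Over all genes 26.4% were called against WT and 22% against Arid1a KO. The central vein and receptor counts against WT do not exceed 26.4%.

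Some markers of other cells also differed in this group, where 26.4% of all genes were called against WT. The macrophage, platelet, lymphatic and B cell counts below do not exceed that share. Of 9 stellate cell genes 4 rose against WT, and their summed level was 531 to 1069 CPM in livers labelled Arid1a/b DKO and 230.1 to 481 CPM in the other livers. Acta2, the smooth muscle actin of activated stellate cells, had 85.1 and 40.7 CPM in DKO against 1.53 and 1.30 CPM in WT livers. Of 15 macrophage genes 3 rose, Gpnmb, Trem2 and Cd68, with a summed level of 2124 to 3785 CPM in DKO and 236 to 2394 CPM in the other livers. Of 6 hepatocyte genes 4 fell, Cyp2e1 with the smallest p (log2 -4.60), and the summed level was 11786 to 12131 CPM in DKO and 10142 to 36063 CPM in the other livers. Of 5 cholangiocyte genes Spp1 and Epcam rose, of 5 platelet genes tested Pf4 rose, of 4 lymphatic genes Prox1 fell, and of 6 B cell genes edgeR called 0, with 0 at an unadjusted p under 0.05. None of these genes was at 0 counts in either DKO liver. The part of these cells in the values of the members and of the other endothelial lists, Col4a1 and Col4a2 included, was not tested.

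In livers labelled Arid1a KO, without the loss of Arid1b, most members had a lower level than in WT livers, and none passed the test at either time. At 9 days edgeR called 0 members, 0 had an unadjusted p under 0.05, and DESeq2 and limma also called 0, with 0.566% of all genes called. The members' median log2 was -0.44, and 1 of the 10 was above 0. At 30 days edgeR, DESeq2 and limma again called 0, with 0.516% of all genes called, a median of -0.51 and 2 of 10 above 0. The 1 member with an unadjusted p under 0.05 was Fcgr2b, at 48.8 and 35.2 CPM in livers labelled Arid1a KO and 76.1 and 69.4 CPM in WT (log2 -0.80, SE 0.36, edgeR adjusted p = 0.527).

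Stab2 gave the lowest log2 at 9 days, -0.88 with an interval from -1.82 to 0.06 (edgeR adjusted p = 0.517), with 49.6 and 45.9 CPM in livers labelled Arid1a KO and 66.6 and 109 CPM in WT. Its 30-day value was -0.62 with an interval from -1.56 to 0.32. Stab1 had 0.06 at 30 days, with an interval from -0.66 to 0.78. These intervals include changes of more than 1 log2 unit for Stab2 in the lower direction. The change from 9 to 30 days was not called different between the genotypes in any member by the interaction test (0 called by edgeR, DESeq2 and limma, 0 with an unadjusted p under 0.05, and 0% of all genes called). Between 9 and 30 days 0 members were called by these 3 tools in WT (0.0224% of all genes called) or in livers labelled Arid1a KO (0.0112%), and 0 had an unadjusted p under 0.05 in either. The members' median log2 was 0.01 in WT.

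The endothelial lists gave no call by edgeR, the 1 tool used for lists, in livers labelled Arid1a KO against WT. Of the pan-endothelial, other sinusoidal, vessel and central vein genes 0 were called and 0 had an unadjusted p under 0.05 at 9 or at 30 days. Of the 8 receptor genes tested 0 were called, while 1 at 9 days and 3 at 30 days had an unadjusted p under 0.05, and of the 7 ligand genes 0 were called, with 1 and 0 under it. The other sinusoidal genes had medians of -0.46 and -0.48, and the pan-endothelial genes of -0.27 and -0.12.

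The agonist groups compare treated with vehicle livers in each genotype. In WT livers 0 members were called by edgeR, DESeq2 or limma and 0 had an unadjusted p under 0.05, with 0.028% of all genes called. Stab2 was at 74.7 and 85.0 CPM with the agonist against 102 and 83.5 CPM with vehicle, and Clec4g at 62.2 and 69.3 CPM against 69.0 and 59.0 CPM. All 10 members overlapped between these groups, while 28.3% of all genes did not. The members' log2 fold changes ran from -0.28 (Kdr) to 0.58 (Lyve1).

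In livers labelled Arid1a KO the agonist gave 0 calls by these 3 tools and 0 unadjusted p under 0.05, with 0.869% of all genes called. All 10 members overlapped here too, while 39.5% of all genes did not. Lyve1 had the largest log2, 1.06 (SE 0.74, edgeR adjusted p = 0.614), at 20.99 and 5.43 CPM with the agonist and 3.88 and 8.35 CPM with vehicle. Between the agonist-treated genotypes 4.95% of all genes were called and 0 members by edgeR, DESeq2 or limma, with 0 unadjusted p under 0.05 and a median log2 of -0.38. The effect of the agonist was not called different between genotypes in any member by the interaction test (0 called by the 3 tools, 0 with an unadjusted p under 0.05, 0.00561% of all genes called). Of the ligands Vegfa was lower (log2 -0.96) and of the receptors Notch1 higher (log2 1.07) in agonist-treated livers labelled Arid1a KO than in agonist-treated WT livers, while edgeR called 0 pan-endothelial and 0 other sinusoidal genes, with 0 and 1 at an unadjusted p under 0.05.

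In some groups the spread between replicates was itself shared by the members. In the agonist-treated livers labelled Arid1a KO all 10 members were higher in replicate 1, by a median of 2.71-fold, with Stab2 at 75.7 and 27.3 CPM. All 20 pan-endothelial genes were higher in that library too, by a median of 1.93-fold, and so were all 15 macrophage genes (1.65-fold), all 9 stellate genes (1.84-fold), all 6 B cell genes and all 6 platelet genes. Replicate 2 was the lowest liver for 9 of the 10 members, all but Lyve1. In the 9-day WT livers all 10 members were higher in replicate 2, by a median of 1.83-fold, as were 18 of 20 pan-endothelial genes, all 15 macrophage genes (2.01-fold) and all 6 B cell genes (2.09-fold). Alb, the albumin gene of hepatocytes, stood at 18599 CPM in WT replicate 1 and 4585 CPM in replicate 2 at 9 days, and its part in these gaps was not tested. In 30-day WT livers replicate 1 was the higher for all 10 members, by a median of 1.37-fold, and also for all 15 macrophage genes, by 2.81-fold. In these groups the gaps were thus shared with genes of other cells, but not in all groups. In 9-day livers labelled Arid1a KO 7 of 10 members were lower in replicate 2, while 14 of 15 macrophage genes were higher. At 30 days 8 of 10 members were lower in replicate 2 of that genotype with vehicle, while 12 of 15 macrophage genes were higher.

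Across the 16 libraries the 6 members that fell in tumours had pairwise Pearson correlations of 0.899 to 0.980 in log2 level over 15 pairs, and of 0.853 to 0.960 over the 14 livers. The 6 were picked by their fall in tumours, so their values over 16 libraries partly follow from that choice. For the other members, the median correlation over 16 libraries was 0.222 for Lyve1, 0.253 for Vwf, 0.693 for Pecam1 and 0.813 for Stab1. Over the livers it was 0.517, 0.686, 0.819 and 0.771. These points share libraries, depth and scaling, and the values are descriptions. Among 11762 genes with a mean of at least 2 CPM, the levels most like the members' standardised mean were those of Itpkb (r = 0.979), Lrrc8c (0.978), Adgrf5 (0.972), Bmp2 (0.971), Gimap6 (0.964), She (0.962), Fgd5 (0.962) and Lrrc32 (0.960) over the 16 libraries. Bmp2 is on the list of other sinusoidal genes.

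The authors' counting may or may not have used strand. On the opposite strand, Stab1 overlaps Nt5dc2, Gpr182 overlaps Zbtb39, and Stab2, Clec4g and Fcgr2b overlap antisense or pseudogene models, so reads of such pairs may not be told apart. Lyve1, Pecam1, Kdr, Oit3 and Vwf overlap no annotated gene.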

How the data were processed

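Whole liver and isolated tumour RNA was purified with Trizol and columns and sequenced from TruSeq libraries, per the labels' protocols. Per the submitters' processing notes, reads were processed with fastp, STAR 2.7.3 and featureCounts on GRCm38.p6, with annotation release and strand setting not given in the sources used here. Deposited count values are whole reads per gene and library. The deposited normalized values, a signal equal to the authors' counts times 1 factor per library by a test on the file, were used for limma only. Of 55291 genes, 18410 had no count.

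Groups follow the labels. Counts were fitted in edgeR 4.0.16 (R 4.3.3) by quasi-likelihood with filterByExpr, TMM scaling and Benjamini-Hochberg adjustment. The 14 livers shared 1 fit of 17831 genes with 7 residual degrees of freedom for liver comparisons, and all 16 libraries 1 fit of 18193 genes with 8 for tumour comparisons. Calls were made below an adjusted p of 0.05, and the SE was taken as |log2 fold change| over the root of F. CPM uses the TMM factors of the 16-library fit, and relative levels and correlations use log2(CPM + 0.5). Floors of 3 counts cover counting error only. Positions and exon lengths come from GENCODE M21, which held 96.4% of the symbols.

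The members and lists were chosen with earlier results of these data known, and several lists share genes with each other. The 10 members are named throughout; of each other list and comparison up to 3 called genes with the smallest p were named, and the 8 genes most like the members by correlation. Lists cover pan-endothelial, other sinusoidal, vessel, central vein, ligand, receptor, lymphatic, macrophage, B cell, platelet, stellate, hepatocyte and cholangiocyte genes. Alternatives were RLE scaling, no filter, a replicate block, DESeq2 1.42.0, limma-trend 3.58.1 with a pseudocount of 1, other sets of libraries and leaving out each library, whose group then has 1 sample assumed to vary like the others. The fit was tested on simulated data. With 2 samples per group, p-values rest on the spread between these samples within groups. That spread is shared over all groups of a fit and draws on other genes. Figures used matplotlib 3.10.9. One gene of the B cell list is not reported here by name.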

Additional observations from a re-analysis of the deposited data

How the results depend on the processing

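The number of members called was 0 under every alternative run for WT agonist against vehicle, both changes with time, both interactions and Arid1a KO against WT at 30 days. Without the low-count filter it became 1 for Arid1a KO against WT at 9 days (Stab2, lower), 1 for the agonist in Arid1a KO and 1 between agonist-treated genotypes (Lyve1, higher in both), 6 for Arid1a/b DKO against WT and 9 for DKO against Arid1a KO. For DKO against WT (2 in the main analysis) it was 1 with all 16 libraries in the fit, and 0 to 3 with 1 library left out. For DKO against Arid1a KO (5) it was 8 in DESeq2, 9 with only the compared libraries, and 0 to 8 with 1 library left out. In both, the highest count with 1 library left out came without the second agonist-treated liver labelled Arid1a KO, an alternative chosen after seeing the data. For tumours against WT (7) it was 3 to 6 with 1 library left out, and for tumours against Arid1a KO (4) 1 with only the compared libraries and 0 to 3 with 1 left out. RLE scaling changed no count. The cause of these changes was not tested. Replicate numbers are shared across groups, but the labels do not say that they pair samples, and same-numbered samples of compared groups deviated with correlations of -0.0254 to 0.445, and of 0.204 to 0.445 among the 4 groups of 30-day livers. With a replicate block DKO against WT had 1 member called, Lyve1, with Pecam1 at a log2 of 1.36 (edgeR adjusted p = 0.0532), and no other count of members changed. Of 205 alternatives for the 18 single-gene calls 159 kept the call, 46 lost it and 0 reversed. With 2 libraries per group and a biological coefficient of variation of 29.3% in livers, smaller changes may go uncalled. Over all genes the calls in DKO against WT (4710) went down to 1855 without WT replicate 1 and 2715 without DKO replicate 1, and those in DKO against Arid1a KO (3928) to 1618 and 1656 without either Arid1a KO library and 2290 without DKO replicate 1. Those in tumours against WT (5489) went down to 2713 and 2920 without either WT library and 3388 with only the compared libraries, and those in tumours against Arid1a KO (4573) to 1799 without Arid1a KO replicate 1 and 1297 with only the compared libraries. In the agonist-treated genotypes (883) they ranged from 74 to 471 with 1 library left out, with 2468 unfiltered and 1821 in DESeq2. Arid1a KO against WT gave 101 at 9 days (1018 unfiltered, 486 in DESeq2, 195 with only the compared libraries, 17 to 33 with 1 library left out) and 92 at 30 days (942 unfiltered, 393 in DESeq2, 0 with only the compared libraries, 1 to 177 with 1 left out).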
